A study of Glycine max with 12 samples.

Results

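Transcript levels of 8 flowering genes of soybean (Glycine max), the E1 family and a set of FT genes, were followed in old and young leaves at high and normal manganese (Mn). The members were chosen by gene identifier: E1 (Glyma.06G207800.Wm82.a2.v1), E1La (Glyma.04G156400.Wm82.a2.v1), E1Lb (Glyma.04G143300.Wm82.a2.v1), FT2a (Glyma.16G150700.Wm82.a2.v1), FT2b (Glyma.16G151000.Wm82.a2.v1), FT5a (Glyma.16G044100.Wm82.a2.v1), FT1a (Glyma.18G298900.Wm82.a2.v1) and FT1b (Glyma.18G299000.Wm82.a2.v1). Of these 8 genes, 6 were among the 39811 listed genes. E1Lb and FT2b had no row in the table and were not analysed here. Every listed gene had at least 1 fragment in at least 1 library.

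The 12 leaf RNA-seq libraries formed 4 groups of 3, namely old leaves at 100 µM Mn, old leaves at 5 µM Mn, young leaves at 100 µM Mn and young leaves at 5 µM Mn. All plants grew in nutrient solution and were moved to normal or high Mn, given as MnSO4, when the fifth leaf appeared. Treatments were laid out in randomized complete blocks with 3 replicates. No strain, day length, time of harvest or length of the Mn treatment is given in the sources used here, and neither is the number of plants behind a library. It is not stated whether a replicate number stands for a block, or whether old and young leaves came from the same plants. Since the labels do not say that replicates are separate plants, the p-values measure only the spread between these libraries, which may be technical in part.

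In plants, day length is sensed in the leaf. FT proteins, members of the phosphatidylethanolamine-binding family, are made in leaf veins and move to the shoot tip, where they help switch the meristem from leaves to flowers. In soybean, FT2a and FT5a are the main florigens of this kind, and E1, a legume-specific nuclear protein with a B3-like domain, represses both of them under long days. E1La and E1Lb are its close relatives with a similar repressing role. FT1a is an FT relative reported to delay flowering in soybean, the opposite of FT2a and FT5a.

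Depth was 17774122 to 21070730 fragments per library. Values are FPKM (fragments scaled to gene length and to the total of the library), from which whole fragments per gene and library were solved. Old leaves at 5 µM varied more between replicates than the other groups, with a median SD over genes of 0.266 on the log2 scale against 0.136 to 0.142, and replicate 3 lay farthest from the others in that group. Without that library the calls of FT2a, FT5a and E1La described here did not change, and for FT1a 1 call was gained. The extraction text in the labels mentions nodules while each sample is labelled as leaf. The table does not pair identifiers with names, so the check of leaf and nodule marker genes was not made.

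The 6 listed members fell into 2 levels. FT5a and FT2a passed the filter used for testing, which asked for 1 FPKM or more in 3 or more libraries. FT5a reached 1 FPKM in 12 of 12 libraries and FT2a in 8 of 12. E1La, FT1a, FT1b and E1 never reached 1 FPKM, and 29.0% of all listed genes likewise missed the filter. Over the 12 libraries FT5a averaged 9.26 FPKM and FT2a 6.05 FPKM, with 25.5% and 34.9% of listed genes above them. The other 4 members, E1, its relative E1La and the FT1 pair, were far lower, with 29 fragments in all for E1La, 30 for FT1a, 10 for FT1b and 8 for E1. Mean levels were 0.196 FPKM for E1La, 0.123 for FT1a, 0.0534 for FT1b and 0.0404 for E1, and between 81.5% and 90.9% of listed genes had a higher mean.

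FT2a, a florigen, was higher in old than in young leaves at high Mn. Its level was 9.89, 14.9 and 18.7 FPKM in old leaves at 100 µM Mn, against 0.457, 0.808 and 0.269 FPKM in young leaves at 100 µM. At 5 µM it was 2.82, 12.998 and 4.98 FPKM in old leaves, against 1.23, 0.800 and 4.84 FPKM in young leaves. The leaf ages did not overlap at 100 µM, while at 5 µM replicate 3 of the young leaves lay above replicate 1 of the old leaves. Group means were 14.5 ± 4.40 FPKM in old leaves and 0.511 ± 0.273 FPKM in young leaves at 100 µM, and 6.93 ± 5.36 FPKM in old leaves and 2.29 ± 2.22 FPKM in young leaves at 5 µM (SD, n = 3 each).

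**Figure D1:**
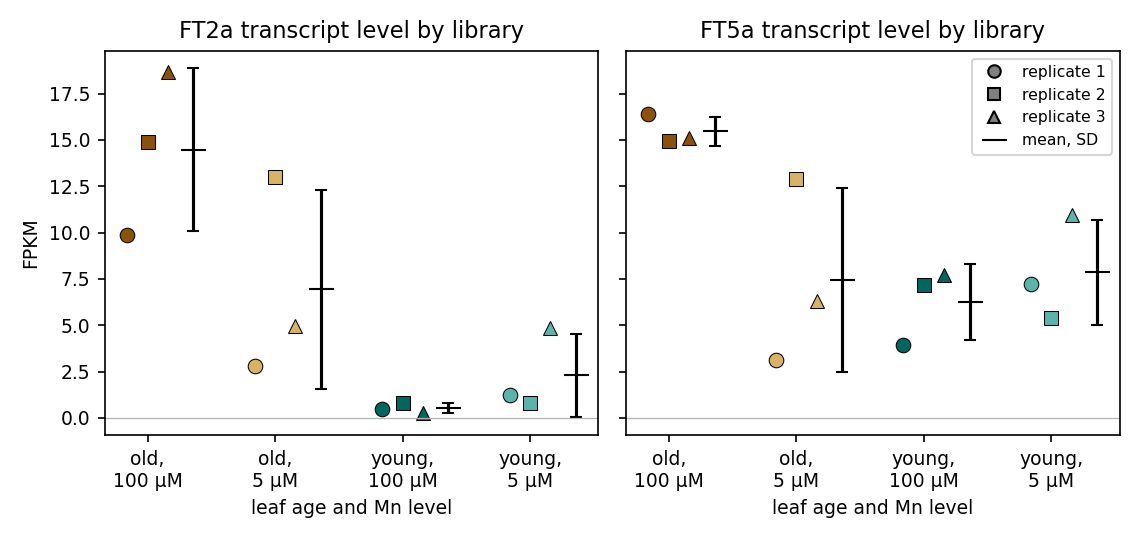
FPKM (y axis, linear) of FT2a and FT5a in each of the 12 libraries, grouped by leaf age and Mn level, with replicates as symbols and the mean and SD beside them. FT2a lies between 9.89 and 18.7 in old leaves at 100 µM and below 1 in young leaves at 100 µM. FT5a lies between 15.0 and 16.4 in old leaves at 100 µM and between 3.14 and 12.9 in the other groups.

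Tests used log2(FPKM + 1) in limma, with Benjamini-Hochberg adjustment over all genes fitted and a gene called below an adjusted p of 0.05. At 100 µM the old-minus-young difference of FT2a was 3.33 on that scale (SE 0.49, limma adjusted p = 0.00026), and all 22 alternatives called it. Leaving out a library at 5 µM kept this difference at 3.33 and changed only its SE and the adjustment. At 5 µM the difference was 1.26 (SE 0.49, 95% interval 0.18 to 2.33) and did not pass (limma adjusted p = 0.055). Leaving out replicate 1 of old leaves at 5 µM, the lowest of its group, gave 1.68 (limma adjusted p = 0.018), and leaving out replicate 3 of young leaves at 5 µM, the highest of its group, gave 1.77 (limma adjusted p = 0.012). These were the only 2 of 22 alternatives that called it. Without replicate 2 of old leaves at 5 µM, the highest of its group, it was 0.74 (limma adjusted p = 0.19). Without replicate 2 of young leaves at 5 µM, the lowest, it was 0.92 (limma adjusted p = 0.18). Averaged over both Mn levels, a comparison added after the values were seen, the difference was 2.29 (SE 0.35, limma adjusted p = 0.00018). In bulk leaf RNA, fewer cells that express a gene and less RNA per cell cannot be told apart.

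FT5a, the other main florigen, differed between leaf ages at high Mn. At 100 µM its level was 16.4, 15.0 and 15.1 FPKM in old leaves, against 3.93, 7.19 and 7.71 FPKM in young leaves, with no overlap. At 5 µM it was 3.14, 12.9 and 6.32 FPKM in old leaves, against 7.22, 5.39 and 10.9 FPKM in young leaves, and the range of the old leaves enclosed that of the young leaves. The old-minus-young difference was 1.22 at 100 µM (SE 0.38, limma adjusted p = 0.024) and -0.19 at 5 µM (SE 0.38, 95% interval -1.02 to 0.64, limma adjusted p = 0.71). The call at 100 µM was lost without any single replicate of old leaves at 100 µM, with limma adjusted p-values of 0.061, 0.054 and 0.056 without replicates 1, 2 and 3, and without replicate 1 of young leaves at 100 µM (limma adjusted p = 0.099). Averaged over both Mn levels the difference was 0.52 (SE 0.27, limma adjusted p = 0.13), and it passed without replicate 1 of old leaves at 5 µM, the lowest of its group, at 0.73 (limma adjusted p = 0.017). Without replicate 2 of that group, the highest, it was 0.29 (limma adjusted p = 0.27), and 1 of 21 alternatives called it.

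E1La, the E1-like repressor gene, was also higher in old leaves, from very few fragments. It had 7, 4 and 5 fragments in old leaves at 100 µM, against 1, 1 and 1 in young leaves at 100 µM. At 5 µM it had 5, 2 and 3 fragments in old leaves, against 0, 0 and 0 in young leaves. The 6 old-leaf libraries thus all lay above the 6 young-leaf libraries. In FPKM the group means were 0.428 ± 0.122 in old leaves and 0.0759 ± 0.00266 in young leaves at 100 µM, and 0.282 ± 0.142 in old leaves and 0 in young leaves at 5 µM (SD, n = 3 each). Summed over both Mn levels, 26 fragments in old leaves and 3 in young leaves gave a ratio per fragment sequenced of 9.24 (95% exact interval 2.83 to 47.7, counting error only).

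Because E1La missed the filter, it was read from the same model fitted to all 39811 listed genes. The old-minus-young difference was 0.40 at 100 µM (SE 0.08, limma adjusted p = 0.0020) and 0.35 at 5 µM (SE 0.08, limma adjusted p = 0.0046). The pseudocount of 1 compresses differences at such low levels. The 4 groups share 1 estimate of the spread, and the young-leaf groups, at 0 or 1 fragment, add almost none to it. The SE may therefore be too small for old leaves. All 22 alternatives at each Mn level called the difference. Of these, the settings with no filter and with a mean FPKM filter repeat the main fit for E1La. Leaving out a library of the other Mn level kept the difference and changed only its SE and the adjustment. E1La and FT2a were thus both higher in old leaves at 100 µM.

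E1 itself was close to the limit of detection. It had 1, 0 and 0 fragments in old leaves at 100 µM, 3, 1 and 0 in old leaves at 5 µM, 2, 0 and 1 in young leaves at 100 µM, and 0, 0 and 0 in young leaves at 5 µM. These 5 fragments in old leaves and 3 in young leaves gave a ratio of 1.78 with an exact 95% interval of 0.346 to 11.4, so a difference between leaf ages was not detectable at this depth. The 0 fragments in young leaves at 5 µM allow a level of up to 0.0576 FPKM, taking 3 fragments over the group as the limit. E1 was not called in any of the 6 comparisons by limma, under any alternative run.

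FT1a, the FT relative reported to delay flowering, was seen in old leaves and had no fragment in young leaves. It had 1, 3 and 9 fragments in old leaves at 100 µM and 8, 8 and 1 in old leaves at 5 µM, against 0 in each of the 6 young-leaf libraries. The 30 fragments in old leaves correspond to 0.250 FPKM (95% exact Poisson interval 0.169 to 0.358, counting error only), while 0 fragments in young leaves allow up to 0.0235 FPKM. Set against 3 fragments over the young-leaf libraries as that limit, the 30 fragments were at least 10.7-fold higher in old leaves, before the counting error of the 30 themselves. The exact 95% lower limit of the ratio, which covers the counting error of both sums, was 8.14. Of all listed genes, 738 (1.85%) had fragments in old leaves and none in any young-leaf library, and 1789 (4.49%) showed the reverse.

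Within old leaves, replicates of FT1a ranged from 1 to 9 fragments. Young leaves, at 0 throughout, add no spread to the estimate that the groups share, so the SE may be too small for old leaves. Averaged over both Mn levels, the old-minus-young difference was 0.30 (SE 0.08, limma adjusted p = 0.012) and all 21 alternatives called it. Among these, the filter settings repeat the main fit for FT1a. Leaving out a young-leaf library kept the difference at 0.30 and changed only its SE and the adjustment. At 5 µM the difference was 0.35 (SE 0.12, limma adjusted p = 0.041), and 9 of 22 alternatives called it, with adjusted p-values from 0.0043 to 0.13. The call at 5 µM was lost without replicate 1 of old leaves at 5 µM (limma adjusted p = 0.13) and without replicate 2 of that group (limma adjusted p = 0.12). It was also lost without any 1 replicate of the young 5 µM or young 100 µM groups, or without replicate 2 of old leaves at 100 µM, with limma adjusted p-values from 0.056 to 0.098. In these fits the difference stayed at 0.35, and only its SE and the adjustment changed. They therefore do not show that the call depends on the values of these libraries. At 100 µM the difference of 0.26 (SE 0.12) did not pass (limma adjusted p = 0.11). It passed with a pseudocount of 0.1 (limma adjusted p = 0.038) and by voom on solved fragments (adjusted p = 0.0092). It also passed without replicate 3 of old leaves at 5 µM (limma adjusted p = 0.040), a library outside this comparison, with the difference unchanged at 0.26.

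FT1b, whose identifier follows that of FT1a, had 3, 0 and 3 fragments in old leaves at 100 µM, 0, 4 and 0 in old leaves at 5 µM, and 0 in each young-leaf library. Its 10 fragments in old leaves against 0 in young leaves were at least 3.55-fold higher by the same limit, before the counting error of the 10, and the exact 95% lower limit of the ratio was 2.39. These 10 fragments came from 3 of the 6 old-leaf libraries. The averaged difference of 0.14 (SE 0.06) did not pass (limma adjusted p = 0.086), and neither did the one at either Mn level. Leaving out replicate 2 of old leaves at 100 µM, which had no fragment, gave a limma adjusted p of 0.023 for the averaged difference and 0.042 at 100 µM. Without replicate 2 of old leaves at 5 µM the limma adjusted p at 100 µM was 0.048, with the difference unchanged at 0.17. These were the only calls of FT1b for leaf age, in 1 of 21 alternatives for the averaged difference and 2 of 22 at 100 µM. FT1a and FT1b are close relatives, as are FT2a and FT2b, and E1La and E1Lb. How the authors assigned fragments that match several genes is not given in the sources used here, so the split between such relatives is uncertain.

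**Figure D2:**
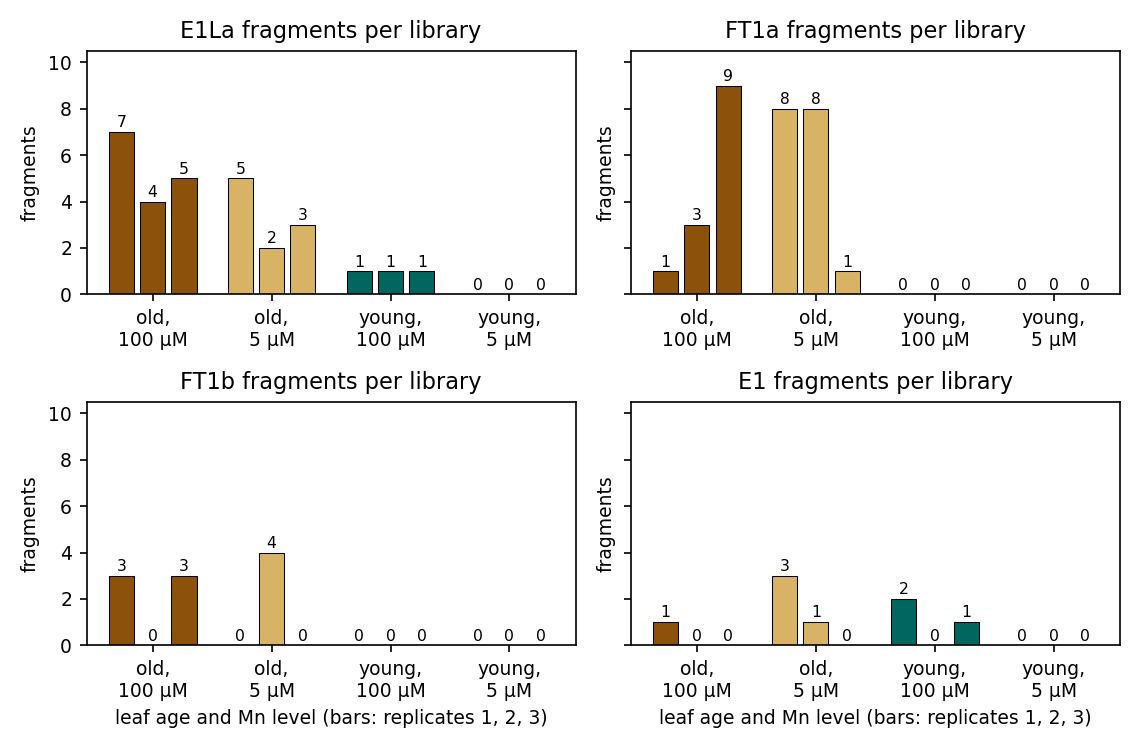
Fragments (y axis, linear, from 0) of the 4 low members in each library, with 1 bar per replicate and its number above it. E1La has 2 to 7 fragments in each old-leaf library and 0 or 1 in young leaves, FT1a and FT1b have 0 in all 6 young-leaf libraries, and E1 has 0 to 3 in any library.

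Counted over the 6 listed members, 3 were called for leaf age at 100 µM (FT2a, FT5a and E1La), all higher in old leaves. The share of genes called higher in old leaves at 100 µM was 17.8% of the 28267 genes past the filter and 13.7% of all 39811 listed genes, and called in either direction it was 40.6% and 34.5%. At 5 µM, 2 members were called (E1La and FT1a), both higher in old leaves, where the share called higher was 28.0% past the filter and 20.4% of listed genes, and in either direction 45.5% and 36.4%. Averaged over both levels, 3 members were called (FT2a, E1La and FT1a), all higher in old leaves. There the share called higher was 30.7% past the filter and 23.7% of listed genes, and in either direction 54.7% and 47.1%. Calls for leaf age were thus frequent in the whole table. Beside these shares, nothing particular to the members is read from counts of 3, 2 and 3 among 6 genes. The median difference of the members was 0.33 at 100 µM and 0.23 at 5 µM. Over the genes past the filter it was -0.03 at 100 µM and 0.16 at 5 µM, and over all listed genes -0.03 and 0.05.

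FT2a and FT5a also differed in how they were balanced against each other, a comparison chosen after their values were seen. The ratio of FT2a to FT5a in FPKM was 0.604, 0.994 and 1.24 in old leaves at 100 µM, against 0.116, 0.112 and 0.0349 in young leaves at 100 µM. At 5 µM it was 0.898, 1.01 and 0.788 in old leaves, against 0.171, 0.148 and 0.443 in young leaves. The 6 ratios of old leaves all lay above the 6 of young leaves. In young leaves the ratios rest on few FT2a fragments, with 8, 15 and 5 at 100 µM and 20, 15 and 91 at 5 µM. This ratio is taken within a library, so it does not depend on how libraries are scaled.

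On the log2 scale the ratio was -0.14 ± 0.53 in old leaves and -3.70 ± 0.99 in young leaves at 100 µM, and -0.16 ± 0.18 in old leaves and -2.16 ± 0.86 in young leaves at 5 µM (SD, n = 3 each). The old-minus-young difference, averaged over the Mn levels, was 2.78. Permuting leaf age within each Mn level gave a 2-sided exact permutation p of 0.005, the smallest that 400 arrangements can give. The adjusted permutation p was 0.03 (Benjamini-Hochberg over the 6 ratio comparisons made), which does not cover the choice of this pair. Because old and young ratios did not overlap at either Mn level, the p could only take its smallest value. The pair was chosen after its values were seen, so the p restates that separation and is no separate support. Other pairs of genes were not compared in this way. Within a single Mn level, 3 against 3 libraries cannot go below an exact permutation p of 0.1, which was reached at both levels. The averaged difference was between 2.49 and 3.02 when each library was left out in turn. In old leaves the ratio differed between 100 and 5 µM by 0.02, less than the spread between replicates (exact permutation p = 1). In young leaves the 3 ratios at 100 µM lay below the 3 at 5 µM (difference -1.54, exact permutation p = 0.1, the smallest possible, and 0.15 after adjustment). Those at 100 µM rest on 8, 15 and 5 FT2a fragments, so their values and SD carry a large counting error.

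**Figure D3:**
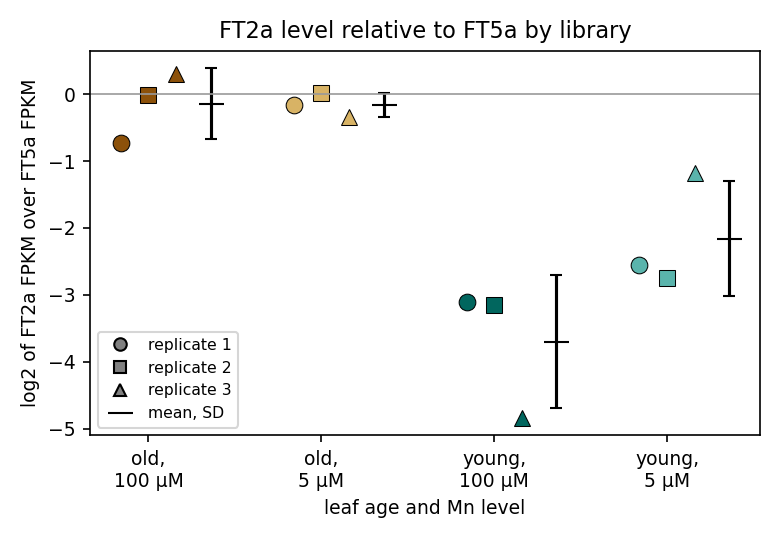
Log2 of the FT2a to FT5a ratio in FPKM (y axis, 0 means equal levels) in each library, with replicates as symbols and the mean and SD beside them. Old-leaf libraries range from -0.73 to 0.31 and young-leaf libraries from -4.84 to -1.18.

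The Mn comparisons gave no call among the members. In old leaves both florigen genes had higher means at high Mn. FT5a averaged 15.5 ± 0.782 FPKM at 100 µM and 7.45 ± 4.97 FPKM at 5 µM (SD, n = 3 each), and its 3 values at 100 µM lay above the 3 at 5 µM. FT2a averaged 14.5 FPKM at 100 µM and 6.93 FPKM at 5 µM, but replicate 2 at 5 µM, with 12.998 FPKM, exceeded replicate 1 at 100 µM. The same replicate 2 held the highest value of its group for both genes, and replicate 1 the lowest.

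The differences (100 minus 5 µM) in old leaves were 1.13 for FT5a (SE 0.38, 95% interval 0.30 to 1.97, limma adjusted p = 0.065) and 1.14 for FT2a (SE 0.49, 95% interval 0.06 to 2.21, limma adjusted p = 0.14). By limma 0 of the 6 listed members were called in this comparison. Over all genes, 16.1% of those past the filter and 10.9% of those listed were called. Without replicate 2 of old leaves at 5 µM both genes passed, with differences of 1.58 for FT5a (limma adjusted p = 0.013) and 1.65 for FT2a (limma adjusted p = 0.041). Without replicate 1 of that group they fell to 0.71 for FT5a (limma adjusted p = 0.17) and 0.72 for FT2a (limma adjusted p = 0.37). For each gene 1 of 22 alternatives gave a call. The voom method on solved fragments also called 0 members here. E1La had 16 fragments at 100 µM and 10 at 5 µM in old leaves, a ratio of 1.55 with an exact 95% interval of 0.663 to 3.83. Its difference of 0.16 did not pass (limma adjusted p = 0.23), except without replicate 1 of old leaves at 5 µM (limma adjusted p = 0.041). FT1a had 13 fragments at 100 µM and 17 at 5 µM in old leaves, a ratio of 0.742 with an interval of 0.332 to 1.62.

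In young leaves FT2a had the lower mean at high Mn, 0.511 FPKM at 100 µM and 2.29 FPKM at 5 µM, with replicate 3 at 5 µM (4.84 FPKM) well above the rest. The values of 0.808 FPKM in replicate 2 at 100 µM and 0.800 FPKM in replicate 2 at 5 µM made the groups touch. Its difference was -0.94 (SE 0.49, 95% interval -2.01 to 0.13, limma adjusted p = 0.15). FT5a averaged 6.27 ± 2.05 FPKM at 100 µM and 7.85 ± 2.82 FPKM at 5 µM (SD, n = 3 each), with a difference of -0.28 (SE 0.38, 95% interval -1.11 to 0.56, limma adjusted p = 0.57). The median difference over all genes past the filter was 0.27 in this comparison, and -0.01 after median-of-ratios scaling, under which FT2a had a difference of -1.12 and FT5a of -0.59, neither called. FT1a and FT1b had no fragment in either young group. Of the 4 members with a value, limma called 0. Over all genes, 35.2% of those past the filter and 26.0% of those listed were called in this comparison. By voom 1 member was called, E1La, on 3 fragments at 100 µM and 0 at 5 µM.

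The Mn difference of FT2a was positive in old leaves and negative in young leaves, and that of FT5a likewise. The old-leaf response minus the young-leaf response was 2.07 for FT2a (SE 0.69, 95% interval 0.56 to 3.59) and 1.41 for FT5a (SE 0.54, 95% interval 0.23 to 2.59). Neither passed over all genes, with limma adjusted p-values of 0.099 and 0.14, and 0 of the 6 members were called. Among all genes, 4.67% of those past the filter and 3.00% of those listed were called for this difference. Without replicate 2 of old leaves at 5 µM both were called, at 2.59 for FT2a and 1.86 for FT5a (limma adjusted p = 0.027 each). FT2a fell to 1.56 without replicate 3 of young leaves at 5 µM (limma adjusted p = 0.21). FT5a fell to 0.98 without replicate 1 of old leaves at 5 µM (limma adjusted p = 0.17). For each gene 1 of 21 alternatives gave a call. By voom 0 members were called.

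**Figure D4:**
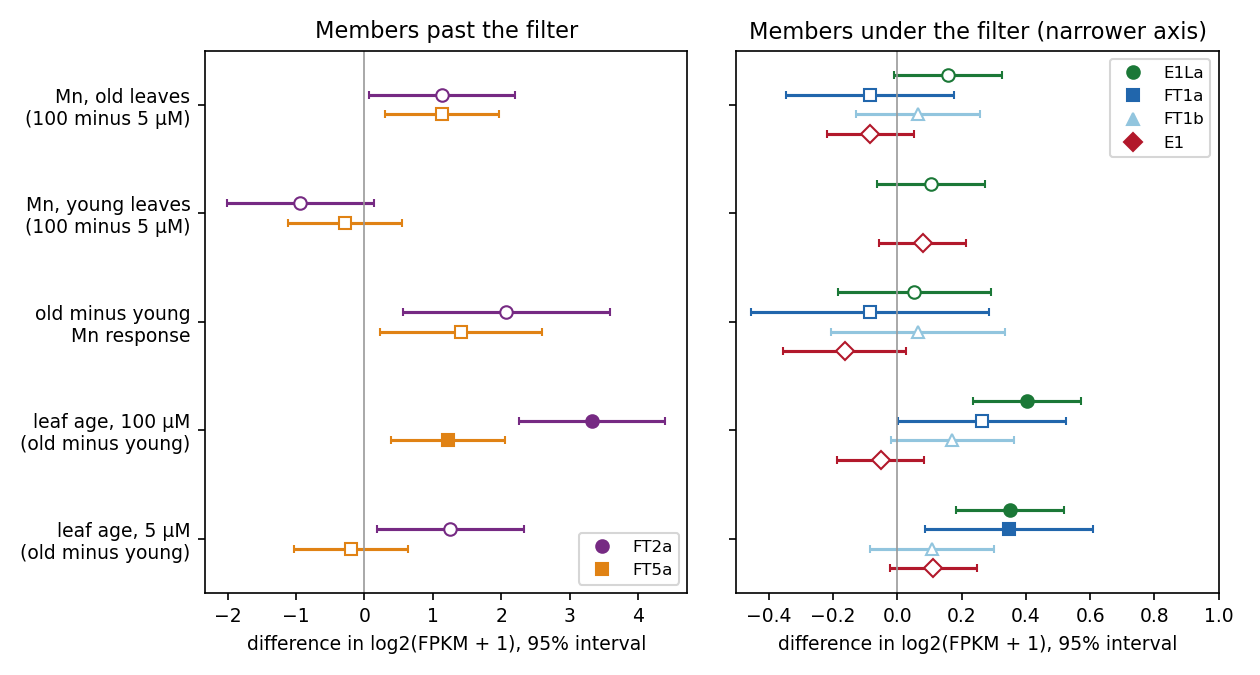
Difference in log2(FPKM + 1) (x axis) with its 95% interval from limma, for the Mn response at each leaf age, the difference between these responses and leaf age at each Mn level (y axis), with filled symbols for calls at an adjusted p below 0.05 and open ones for the rest. FT2a and FT5a are on the left and the 4 low members on a narrower axis on the right; the differences of FT1a and FT1b in young leaves are absent because both groups had no fragment. Among these 5 comparisons, filled symbols appear at 3.33 (FT2a), 1.22 (FT5a) and 0.40 (E1La) for leaf age at 100 µM, and at 0.35 (E1La and FT1a) for leaf age at 5 µM.

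By mean level, FT2a ran from old leaves at 100 µM through old leaves at 5 µM and young leaves at 5 µM to young leaves at 100 µM. Neighbours in that order overlapped, and none of the 3 steps passed the test. FT5a was highest in old leaves at 100 µM, and its other 3 groups, with means of 6.27 to 7.85 FPKM, overlapped one another.

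The genes whose pattern over the 12 libraries was most like that of FT2a were Glyma.18G106300.Wm82.a2.v1 (Pearson r = 0.946 of log2(FPKM + 1)) and Glyma.02G115200.Wm82.a2.v1 (r = 0.941). FT5a was most like Glyma.20G155700.Wm82.a2.v1 (r = 0.903) and Glyma.08G319500.Wm82.a2.v1 (r = 0.839). Between FT2a and FT5a r was 0.757, which put FT5a at rank 1543 among genes like FT2a and FT2a at rank 37 among genes like FT5a. These values are a description of 12 libraries that share their leaf age and Mn groups. Glyma.18G106300 averaged 46.1 ± 4.87 FPKM in old leaves at 100 µM, 28.2 ± 6.71 in old leaves at 5 µM, 12.9 ± 3.00 in young leaves at 100 µM and 18.1 ± 6.45 in young leaves at 5 µM (SD, n = 3 each), the same order of groups as FT2a. None of these identifiers is paired with a name in the table.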

How the data were processed

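The authors deposited 1 table of FPKM values for 39811 genes and 12 libraries. The submitters' processing notes name HISAT2 2.1.0, Bowtie2 2.2.3 and DESeq2 1.6.3, without saying what each did. How genes were chosen for the table is not given in the sources used here. Fragments were solved from ratios of FPKM between libraries and whole gene lengths, and all 39811 genes came out within 0.02 of a whole number. The solving looked for the smallest whole numbers that fit, so this is not a separate check of the counts. Counts of a gene that share a factor could come out too low, with too short a length. Solved lengths were not compared with annotated ones. The solving and the model were tested on simulated data.

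The 28267 genes that reached 1 FPKM in 3 or more libraries were fitted in limma 3.58.1 (R 4.3.3) as log2(FPKM + 1), with 4 group means over 12 libraries and a trended variance. Members under the filter were read from the same fit to all listed genes. Tests were 2-sided. Intervals and limits from fragments cover counting error only, and use 95% and 3 fragments. The averaged leaf age difference and the FT2a to FT5a ratio were added after the values were seen.

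Gene names are those by which the members were chosen. The members and lists were chosen with earlier results of these data known. All 8 members are named, with the 2 genes most like each member past the filter. A RefSeq table (Glycine_max_v4.0) matched 0 identifiers, so a list of other flowering genes and the tissue markers were not used, and no sequence is shown. Alternatives were pseudocounts of 0.1 and 5, no filter, a mean FPKM of at least 5, median-of-ratios and quantile scaling, the replicate block, no variance trend, voom on solved fragments, the compared libraries alone, and each library left out.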

Additional observations from a re-analysis of the deposited data

How the results depend on the processing

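Of the member tests under the alternatives, 691 kept their direction and side of the threshold, 17 lost a call, 17 gained one and 10 changed sign, none of which was a called value. Many of the 691 could not differ in value. The filter settings repeat the main fit for members under the filter. Leaving out a library outside a comparison keeps the difference and changes only its SE and the adjustment. The 3 members called for leaf age at 100 µM were 2 to 4 without any 1 library, and the 3 for the averaged difference 3 to 4. The 2 members called at 5 µM became 1 with a pseudocount of 5, with the replicate block, with no variance trend and with the compared libraries alone, and 1 to 2 without any 1 library. The 0 calls for Mn in young leaves became 1 (E1La) with a pseudocount of 0.1, by voom and with the compared libraries alone. For Mn in old leaves and for the difference between Mn responses the 0 calls were 0 to 2 without any 1 library.

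Signs changed for E1La in the difference between responses (-0.30 with a pseudocount of 0.1, -0.95 by voom, and -0.02 to 0.14 without any 1 library, at -0.022 without old leaves at 5 µM replicate 2 and -0.016 without old leaves at 100 µM replicate 1) and for E1 in leaf age at 100 µM (0.0026 after quantile normalization). Without any 1 library, the difference of FT1a ran from -0.22 to 0.011 for Mn in old leaves and for the difference between responses, that of FT5a for leaf age at 5 µM from -0.64 to 0.24, and that of E1 for the averaged leaf age from -0.0059 to 0.058. The cause was not tested.

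Groups share replicate numbers, but no label says that a number is a block. Deviations of same-numbered libraries from their group means correlated above 0.1 in 6 of 18 pairs (-0.47 to 0.257), and those of different-numbered ones in 14 of 36, so the numbers were not taken to pair the libraries. With the replicate block, FT1a at 5 µM was not called (adjusted p = 0.072), and the block changed no other call of a member. For the difference between responses, calls over all genes were 766 with the block and 1320 without it. Calls over all genes ran from 1038 to 7537 over the alternatives for Mn in old leaves (4551), 194 to 3232 for the difference between responses (1320), 5253 to 13599 for Mn in young leaves (9957), 6087 to 14001 for leaf age at 100 µM (11479), 7506 to 14508 at 5 µM (12855) and 8590 to 18751 averaged (15453). The leaf age ranges compare unlike sets of genes. Their lowest counts came with a mean FPKM of at least 5, which tests another set. The highest at 5 µM and averaged came with no filter, which tests 39811 genes in place of 28267. The share of higher calls depended on scaling, with 67% and 50.6% (median-of-ratios) for Mn in old leaves, 84.2% and 48.6% in young leaves, 19.6% and 38.2% for the difference between responses, 61.5% and 48.6% for leaf age at 5 µM, and 43.7% and 55.6% (quantile) at 100 µM.

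The 4 low members had 0 to 9 fragments per library, which limits what their tests show. The comparison of libraries alone was not run for the contrasts that use all 12, and FT1b at 5 µM has no value without replicate 2 of old leaves at 5 µM.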
